A study of Mus musculus with 36 samples.

Results

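Complement is a cascade of proteins that tags cells, synapses and debris for removal. Its classical arm starts when C1q binds a target, and cleavage of C4 and C3 then lays fragments on that surface, while the small peptides C3a and C5a call in and activate immune cells through their receptors. In the nervous system C1q is made mainly by microglia and macrophages, and complement has been studied in the spinal cord and ganglia as part of the immune response to nerve injury. The 9 complement genes described here were C1qa, C1qb and C1qc for the chains of C1q, C3 and C4b for the central components, C3ar1 and C5ar1 for the receptors of C3a and C5a, Itgam for CD11b (the alpha chain of complement receptor CR3), and Serping1 for the C1 inhibitor. They were chosen by gene symbol, 9 of the 55487 genes in the raw table, with Ensembl identifiers matched to GENCODE M21.

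RNA was sequenced in 36 libraries of mouse dorsal root ganglion (DRG), which holds the cell bodies of sensory neurons, and of dorsal spinal cord, where their axons end. Mice were knockout (KO) or wild type (WT), and were taken after spared nerve injury (SNI), a lesion of branches of the sciatic nerve used as a model of neuropathic pain, or without injury (naive). Each tissue had 4 injured KO, 4 injured WT, 5 naive KO and 5 naive WT libraries. Strain, age, side, time after injury and the construct of the knockout were not given in the labels, and the knockout was not described as limited to any cell type. The labels did not state whether libraries of a group were from separate animals, so p-values measure the spread between these libraries, which may be technical.

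Libraries held 21.34 to 27.27 M estimated reads each. The naive DRG libraries A2 and A4 were titled wild type, but their genotype field and column names said knockout. They were analysed as KO. All 4 DRG neuron markers were higher in naive DRG than in naive cord, and all 5 astrocyte and 4 oligodendrocyte markers were lower, in both genotypes. Titles of naive libraries began with the letters A to C and those of injured libraries with E or F. What the letter stands for is not stated, and letter and injury cannot be told apart.

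The C1q genes lie side by side on chromosome 4 in GRCm38 and together span 18.7 kb, with C1qb at 136880129-136886187, C1qc at 136889804-136893065 and C1qa at 136895917-136898803, all on the minus strand. The 250 bases before the start of 4 members are shown. C1qb and C1qc were taken because they lie in this cluster and moved together. Itgam and C3 were taken as the members outside it whose window held one of the motifs marked below. That these windows hold such a motif was therefore fixed by the choice. They are from RefSeq on GRCm38.p6, which held 6 of the 9 members and had no entry for C1qa, C4b or Serping1. Starts are those of the RefSeq entries. The C1qc window has 151 bases inside the GENCODE gene as given above, while that of C1qb ends 13 bases short of its gene and those of Itgam and C3 adjoin theirs. Capitals mark GAGGAA, a core recognised by the myeloid factor PU.1, or TTGCNNAA, a pattern of C/EBP factors, each searched on both strands.
C1qb, chr4:136886201-136886450, minus strand: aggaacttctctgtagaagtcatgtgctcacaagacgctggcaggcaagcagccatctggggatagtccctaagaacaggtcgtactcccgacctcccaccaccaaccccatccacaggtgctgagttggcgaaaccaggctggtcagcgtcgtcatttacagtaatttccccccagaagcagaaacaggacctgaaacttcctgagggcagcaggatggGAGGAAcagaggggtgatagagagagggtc
C1qc, chr4:136892915-136893164, minus strand: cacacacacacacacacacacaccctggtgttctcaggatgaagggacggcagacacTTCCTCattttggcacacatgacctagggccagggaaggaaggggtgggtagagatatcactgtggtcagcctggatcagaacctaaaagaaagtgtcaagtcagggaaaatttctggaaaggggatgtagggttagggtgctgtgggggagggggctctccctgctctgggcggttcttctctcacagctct
Itgam, chr7:128062390-128062639, plus strand: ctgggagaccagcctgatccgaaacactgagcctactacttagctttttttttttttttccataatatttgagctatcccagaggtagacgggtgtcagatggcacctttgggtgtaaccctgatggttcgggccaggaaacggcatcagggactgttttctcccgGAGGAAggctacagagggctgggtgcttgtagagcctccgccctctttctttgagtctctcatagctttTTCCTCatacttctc
C3, chr17:57228137-57228386, minus strand: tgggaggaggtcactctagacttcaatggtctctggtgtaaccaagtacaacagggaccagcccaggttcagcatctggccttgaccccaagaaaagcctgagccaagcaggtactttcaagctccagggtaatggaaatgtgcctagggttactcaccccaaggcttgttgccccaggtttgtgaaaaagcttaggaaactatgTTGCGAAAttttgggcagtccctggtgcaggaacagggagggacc
GAGGAA began 30 bases before the start in C1qb and 193 bases before it in C1qc, there on the other strand. In Itgam it began 84 bases before the start and, on the other strand, 15 bases before it. The windows of C3, C3ar1 and C5ar1 did not hold it, and 23.3% of 32851 mouse promoter windows of that length did. The C3 window held TTGCNNAA 45 bases before the start, as did 9.56% of all windows at some position. A pattern of NF-kB sites was in the C3ar1 window, 14 bases before its start, and in 4.11% of all windows. No window of the 6 members held TTCNNNGAA, a STAT pattern (7.02% of all windows), or the interferon-stimulated response element (2.98%), and C5ar1 had none of the 5 motifs. These matches describe letters and are no evidence of binding.

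After injury 8 of the 9 complement genes were higher in DRG of both genotypes, the exception being the C1 inhibitor gene Serping1. In KO DRG 8 were called higher and 0 lower, where 28.5% of the 19496 genes tested were called in either direction, 15.1% higher and 13.3% lower. In WT DRG 8 were called higher and 0 lower, where 24.9% were called in either direction, 12.6% higher and 12.3% lower. Calls are at an adjusted p under 0.05 in edgeR's quasi-likelihood test, with Benjamini-Hochberg adjustment across every gene tested. The median log2 fold change of the 9 was 1.68 in KO, beside 0.01 over all genes, and 1.52 in WT, beside -0.01.

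The genes of all 3 C1q chains rose in DRG. C1qa had 57.0, 67.6, 55.1 and 73.5 CPM (read counts scaled to a common library size, with edgeR's TMM) in injured KO DRG, against 15.0, 26.5, 19.1, 18.2 and 14.2 CPM in naive KO DRG. In WT it had 61.3, 105, 74.8 and 103 CPM in injured DRG, against 25.6, 39.4, 17.8, 22.0 and 30.6 CPM in naive DRG. Every injured library lay above every naive library of its genotype, and the injured WT libraries E3 and F3 were the highest of all. The log2 fold change of C1qa was 1.80 ± 0.22 in KO (± SE, 4 against 5 libraries, adjusted p = 7.94e-06) and 1.67 ± 0.22 in WT (adjusted p = 1.53e-05). C1qb had 51.0 to 63.1 CPM in injured KO DRG, against 12.3 to 25.1 CPM in naive KO DRG (1.80 ± 0.22, adjusted p = 5.62e-06), and 53.9 to 95.4 CPM in injured WT DRG, against 16.6 to 33.2 CPM in naive WT DRG (1.67 ± 0.21, adjusted p = 1.07e-05). C1qc had 57.1 to 69.5 CPM in injured KO DRG, against 13.7 to 25.0 CPM in naive KO DRG (1.84 ± 0.21, adjusted p = 2.35e-06), and 60.2 to 106 CPM in injured WT DRG, against 18.03 to 37.0 CPM in naive WT DRG (1.66 ± 0.20, adjusted p = 6.22e-06). Neither C1qb nor C1qc overlapped between injured and naive libraries of a genotype.

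C3 and C4b, whose cleaved products mark a target, rose as well. C3 had 11.7, 12.7, 14.6 and 18.7 CPM in injured KO DRG, against 3.89, 8.35, 6.23, 6.41 and 6.35 CPM in naive KO DRG (1.24 ± 0.28, adjusted p = 0.00243). WT libraries had 14.6, 24.5, 30.6 and 30.3 CPM in injured DRG, against 7.08, 12.4, 6.05, 5.43 and 12.4 CPM in naive DRG (1.53 ± 0.27, adjusted p = 0.000298). The groups did not overlap within a genotype, and 3 of the 4 injured WT libraries lay above every injured KO library. C4b had 108, 101, 90.2 and 102 CPM in injured KO DRG, against 40.8, 48.7, 45.3, 42.2 and 37.2 CPM in naive KO DRG (1.26 ± 0.09, adjusted p = 9.55e-09). Its WT levels were 94.2, 114, 128 and 99.5 CPM in injured DRG, against 47.3, 54.2, 48.6, 50.05 and 42.9 CPM in naive DRG (1.17 ± 0.09, adjusted p = 2.95e-08). Its injured libraries all lay above the naive ones. C4b shares reads with its near copy C4a, and the split of reads between them was estimated. By that estimate C4a took 2.48% to 9.76% of their joint reads over the 36 libraries. These shares do not measure how many reads were ambiguous, so how uncertain C4b is remains unknown.

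The receptor genes followed. C3ar1, the C3a receptor gene, had 8.91, 10.1, 9.35 and 11.9 CPM in injured KO DRG, against 3.36, 3.20, 3.46, 2.98 and 3.01 CPM in naive KO DRG (1.68 ± 0.18, adjusted p = 7.31e-07). The WT values were 10.8, 17.8, 13.0 and 17.4 CPM in injured DRG, against 5.33, 6.49, 5.01, 3.16 and 5.81 CPM in naive DRG (1.52 ± 0.17, adjusted p = 1.54e-06). Injured and naive libraries did not overlap in either genotype. C5ar1, the C5a receptor gene, had 2.002, 2.86, 2.82 and 4.05 CPM in injured KO DRG, against 1.23, 1.29, 1.61, 1.08 and 0.867 CPM in naive KO DRG (1.29 ± 0.23, adjusted p = 0.000319). In WT libraries it had 4.27, 6.68, 5.84 and 5.57 CPM in injured DRG, against 2.75, 3.60, 2.36, 1.75 and 2.98 CPM in naive DRG (1.06 ± 0.21, adjusted p = 0.000781). Again there was no overlap within a genotype. Of the injured KO libraries only F4 lay above the highest naive WT library.

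Itgam, whose product pairs with the integrin beta chain of Itgb2 to form CR3, had 9.15, 14.5, 12.4 and 18.045 CPM in injured KO DRG, against 3.18, 4.33, 4.62, 5.34 and 2.52 CPM in naive KO DRG (1.79 ± 0.33, adjusted p = 0.000418). In WT it had 10.5, 19.8, 20.2 and 26.2 CPM in injured DRG, against 6.84, 9.30, 4.54, 5.82 and 14.3 CPM in naive DRG (1.23 ± 0.30, adjusted p = 0.0058). The KO groups were apart, while in WT the injured library E1 lay below the naive library C1. Serping1, whose product blocks the proteases C1r and C1s, had 221 to 274 CPM in injured KO DRG, against 195 to 223 CPM in naive KO DRG (0.28 ± 0.12, adjusted p = 0.0815), and 210.2 to 315 CPM in injured WT DRG, against 208 to 296 CPM in naive WT DRG (0.14 ± 0.12, adjusted p = 0.423). It was not called in either genotype, although a fit of the 9 KO libraries alone called it higher in KO (adjusted p = 0.00282). All 8 rises in each genotype were called without each library in turn, and the 8 in KO also without A2 and A4 together.

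**Figure D1:**
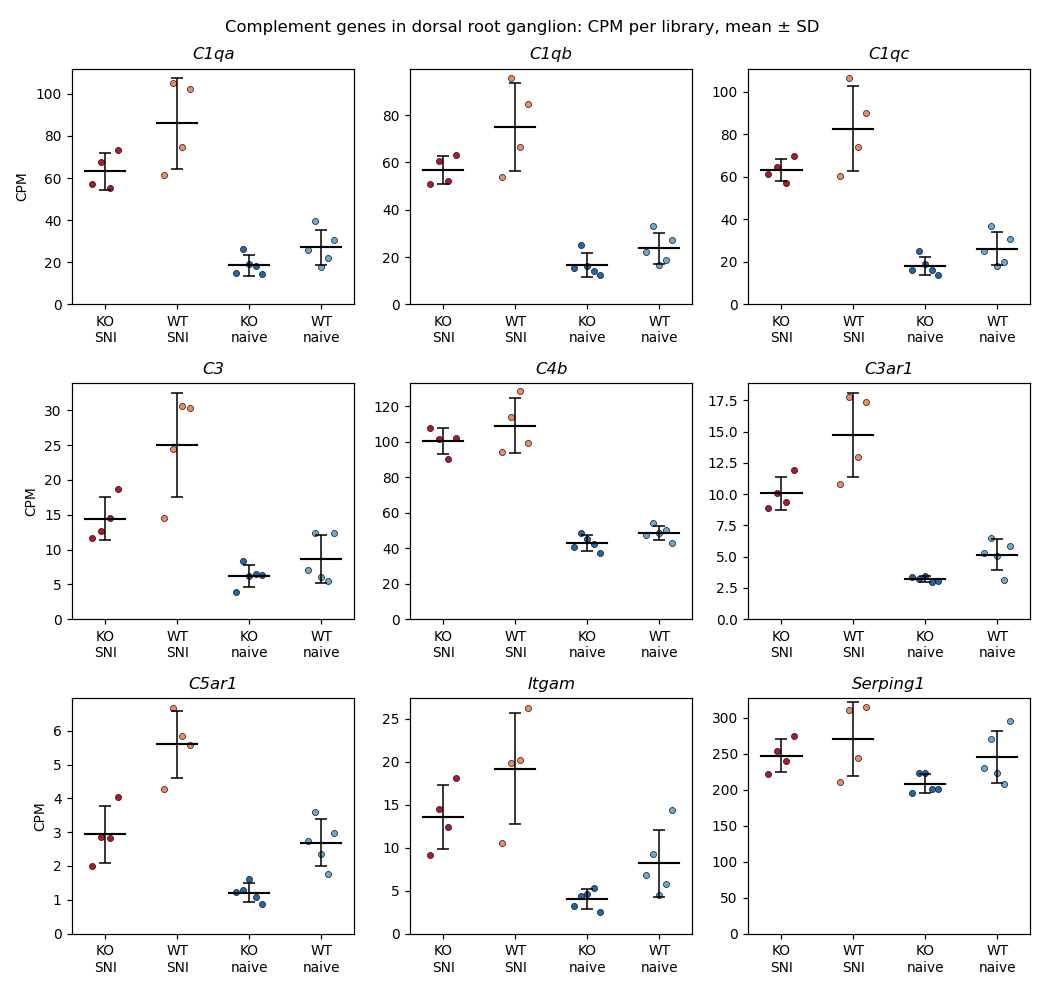
CPM of the 9 complement genes in each DRG library (points), with the group mean (long line) and SD (bars), for injured KO and injured WT (n = 4 each) and naive KO and naive WT (n = 5 each). Injured libraries stand above naive ones of their genotype for the C1q genes, C3, C4b, C3ar1 and C5ar1, while Serping1 overlaps in both genotypes.

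Macrophage markers moved with the complement genes in DRG. Of 10 macrophage markers 9 were higher in injured KO DRG (median log2 fold change 1.59) and 10 in injured WT DRG (1.32). Their summed level was 432.8 to 596.2 CPM in injured KO, against 145.5 to 245.2 CPM in naive KO, and 466.7 to 913.1 CPM in injured WT, against 213.7 to 405.3 CPM in naive WT. Of 10 neutrophil markers 2 were higher in injured KO and 1 in injured WT, and no blood marker of 5 was called in either. Of 8 microglia markers 5 were higher in each genotype (median 0.86 in KO and 0.74 in WT), with sums of 223.1 to 258.7 CPM in injured KO, against 193.6 to 206.1 CPM in naive KO, and 221.8 to 317 CPM in injured WT, against 144.3 to 214.1 CPM in naive WT. Set against naive cord, naive DRG had 5 of the 8 microglia markers lower and 2 higher in each genotype (median -1.87 in KO and -1.49 in WT). Which cells held these transcripts in DRG was not tested. Of 4 DRG neuron markers 2 were lower after injury in each genotype. Whether the complement genes rose because more macrophages were present was not tested, and in whole tissue a change in the number of cells of a type and a change in RNA per cell cannot be told apart.

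In dorsal spinal cord 7 complement genes were higher after injury in KO and 6 in WT, where few genes were called in all. In KO cord 7 were called higher and 0 lower, where 4.42% of 18843 genes tested were called in either direction and 3.79% were higher. In WT cord 6 were higher and 0 lower, where 2.88% were called in either direction and 2.61% were higher. The C1q genes, C4b, C3ar1 and Itgam were called in both genotypes and C3 in KO alone, while C5ar1 and Serping1 were called in neither. The medians over the 9 were 1.32 in KO and 1.04 in WT, beside -0.01 over all genes in each.

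Itgam had the largest log2 fold change of the 9 in cord in both genotypes. It had 54.9, 51.5, 57.1 and 55.4 CPM in injured KO cord, against 14.3, 15.3, 15.0, 17.3 and 17.8 CPM in naive KO cord (1.78 ± 0.07, adjusted p = 6.00e-14). WT libraries had 51.6, 55.7, 53.4 and 54.8 CPM in injured cord, against 20.996, 18.3, 15.3, 18.2 and 21.8 CPM in naive cord (1.51 ± 0.07, adjusted p = 1.33e-12). The groups were wide apart, with little spread among injured libraries. Counts of Itgam were not whole in any of the 36 libraries, so some of its reads were shared with another gene by estimate and its values are uncertain to that extent. C1qa had 60.7, 63.9, 67.1 and 66.8 CPM in injured KO cord, against 20.5, 29.3, 26.2, 27.2 and 25.1 CPM in naive KO cord (1.33 ± 0.07, adjusted p = 3.29e-11). Its WT levels were 68.1, 71.4, 69.8 and 63.6 CPM in injured cord, against 33.4, 27.6, 29.2, 28.2 and 31.9 CPM in naive cord (1.18 ± 0.07, adjusted p = 2.02e-10). C1qb had 49.6, 49.4, 52.0 and 50.8 CPM in injured KO cord, against 17.6, 19.0, 20.9, 15.8 and 16.6 CPM in naive KO cord (1.48 ± 0.07, adjusted p = 5.36e-14). No C1q gene overlapped between injured and naive cord. In WT C1qb had 61.4, 63.9, 56.4 and 54.0 CPM in injured cord, against 24.9, 21.6, 22.0, 21.3 and 21.9 CPM in naive cord (1.398 ± 0.065, adjusted p = 1.61e-13). C1qc had 53.6 to 59.0 CPM in injured KO cord, against 17.6 to 20.3 CPM in naive KO cord (1.56 ± 0.06, adjusted p = 8.15e-15), and 53.7 to 60.4 CPM in injured WT cord, against 20.2 to 25.3 CPM in naive WT cord (1.43 ± 0.06, adjusted p = 3.74e-14).

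C4b rose in cord as well, and C3 did so by the test in KO. C4b had 81.2, 80.4, 87.8 and 78.9 CPM in injured KO cord, against 21.5, 35.7, 38.3, 30.7 and 37.7 CPM in naive KO cord (1.32 ± 0.14, adjusted p = 1.42e-05). The WT values were 68.4, 83.7, 92.6 and 85.7 CPM in injured cord, against 50.9, 40.0, 39.4, 40.1 and 38.8 CPM in naive cord (0.98 ± 0.14, adjusted p = 0.000348). Neither genotype overlapped, and the naive library A5 was the highest of its WT group and A6 the lowest of its KO group. C3 had 32.7, 34.0, 25.4 and 36.3 CPM in injured KO cord, against 13.5, 18.2, 18.4, 18.5 and 18.4 CPM in naive KO cord (0.87 ± 0.15, adjusted p = 0.00228). In WT libraries it had 35.8, 35.3, 39.3 and 36.3 CPM in injured cord, against 30.0, 19.4, 26.8, 34.8 and 22.1 CPM in naive cord (0.46 ± 0.15, adjusted p = 0.165). The WT groups did not overlap, but the naive WT libraries were spread and the gene was not called. It was called in WT by DESeq2 (adjusted p = 0.0199) and without the naive library B7 (0.58, adjusted p = 0.0297).

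Among the receptor genes in cord, C3ar1 had 5.55, 5.88, 4.02 and 5.43 CPM in injured KO cord, against 2.31, 2.38, 2.99, 2.14 and 1.75 CPM in naive KO cord (1.17 ± 0.14, adjusted p = 2.63e-06). In WT it had 4.60, 4.39, 4.42 and 4.07 CPM in injured cord, against 2.40, 2.20, 2.28, 1.75 and 1.97 CPM in naive cord (1.04 ± 0.14, adjusted p = 2.6e-05). Both genotypes were free of overlap. C5ar1 was near the limit of detection in cord, with 5 to 25 reads per library, and had 0.274 to 0.781 CPM in injured KO cord, against 0.233 to 0.481 CPM in naive KO cord (0.57 ± 0.37, adjusted p = 0.534). WT libraries had 0.621 to 1.10 CPM in injured cord, against 0.314 to 1.07 CPM in naive cord (0.28 ± 0.31, adjusted p = 0.836). The groups overlapped in both genotypes, and no difference was detectable at this depth. Serping1 had 14.5 to 23.3 CPM in injured KO cord, against 10.9 to 32.0 CPM in naive KO cord (-0.11 ± 0.36, adjusted p = 0.945), and 17.3 to 30.8 CPM in injured WT cord, against 14.2 to 39.5 CPM in naive WT cord (-0.19 ± 0.34, adjusted p = 0.919), with wide overlap. Without B7 the count in WT cord was 7 and otherwise it was 6, while in KO cord it was 7 without each library in turn.

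**Figure D2:**
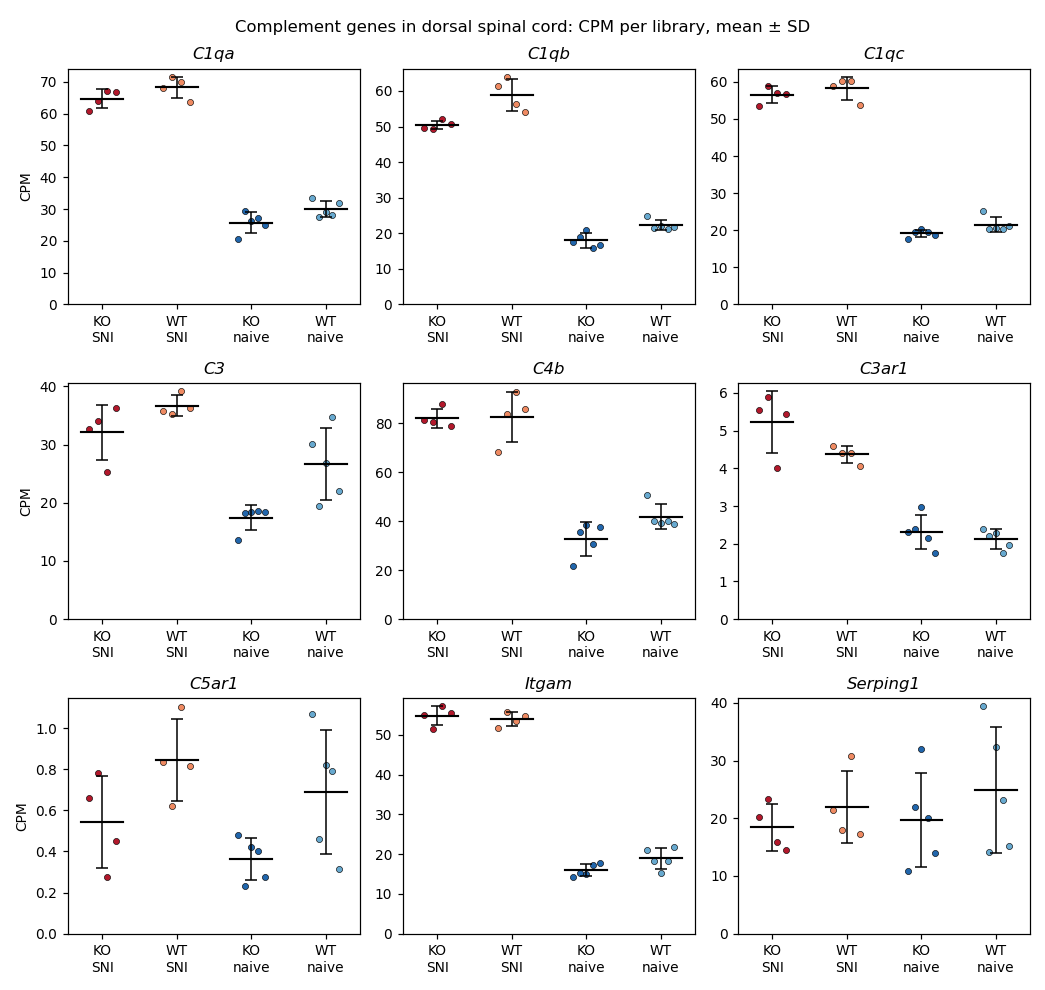
CPM of the 9 complement genes in each dorsal spinal cord library (points), with the group mean (long line) and SD (bars), for injured KO and injured WT (n = 4 each) and naive KO and naive WT (n = 5 each). Itgam and the C1q genes separate injured from naive libraries widely, C5ar1 and Serping1 do not.

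Microglia markers rose with complement in cord, 8 of 8 in KO (median 1.08) and 7 of 8 in WT (0.91). Their summed level was 408.8 to 433.8 CPM in injured KO cord, against 208.8 to 232.2 CPM in naive KO cord, and 393.5 to 415.6 CPM in injured WT cord, against 215.1 to 239 CPM in naive WT cord. Neutrophil markers summed to 3.35 to 9.45 CPM in injured KO cord, against 2.51 to 5.25 CPM in naive KO cord, and to 4.67 to 9.43 CPM in injured WT cord, against 4.4 to 28.43 CPM in naive WT cord, with none of the 5 tested called. Of 9 macrophage markers tested 5 rose in KO cord and 6 in WT cord, with sums of 243.1 to 264.8 CPM in injured KO, against 115.5 to 154.3 CPM in naive KO, and 251.6 to 267.8 CPM in injured WT, against 138.3 to 168.7 CPM in naive WT. Of 5 astrocyte markers 2 were higher in each genotype. The part of any of these cells in the complement rises was not tested. As a description, the sum of the C1q genes per unit of Csf1r, the receptor gene that marks microglia and macrophages, was 0.964 to 1.11 in injured KO cord, against 0.777 to 0.916 in naive KO cord, and 1.07 to 1.21 in injured WT cord, against 0.902 to 0.965 in naive WT cord. Those ranges did not overlap within a genotype. In DRG the same ratio was 2.06 to 2.28 in injured KO, against 1.77 to 2.36 in naive KO, and 1.95 to 2.22 in injured WT, against 1.57 to 1.94 in naive WT, so there the KO ranges overlapped.

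**Figure D3:**
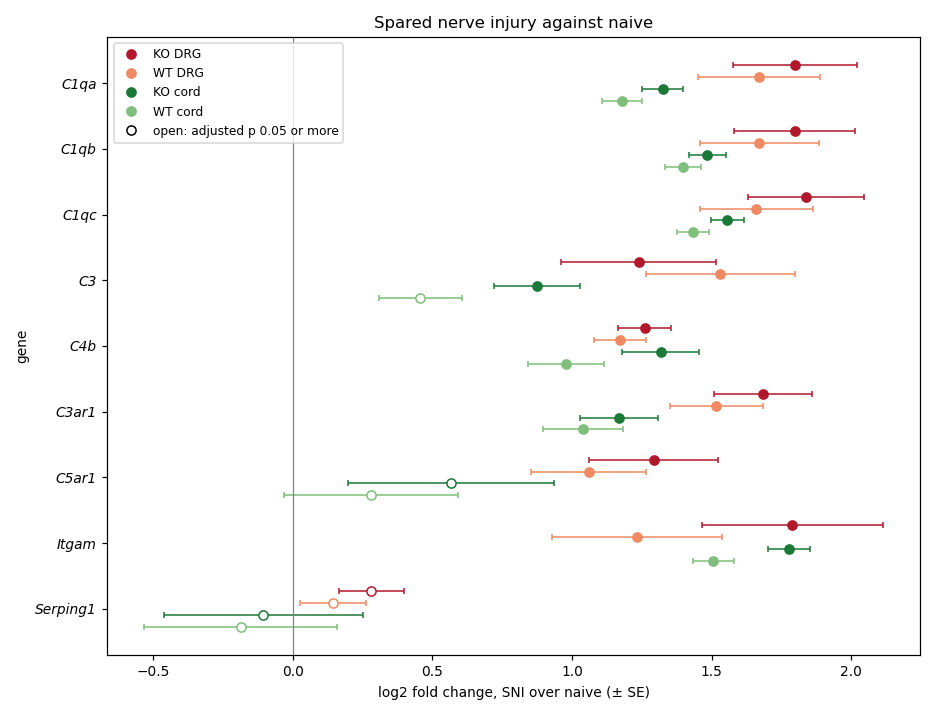
Log2 fold change of SNI over naive (x axis, ± SE from edgeR) for each complement gene in KO DRG, WT DRG, KO cord and WT cord, with filled points at an adjusted p under 0.05. Serping1 is open in all 4 settings, and C5ar1 in both cord settings.

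Whether the injury response depended on genotype was tested as the interaction of genotype and injury. No complement gene differed in DRG, where 0.0256% of genes tested were called (5 of 19496), 0.0205% with a larger KO response and 0.00513% with a smaller one, nor in cord, where 0% were called. In DRG the differences (KO response minus WT response, log2) ranged from -0.29 ± 0.39 for C3 to 0.56 ± 0.45 for Itgam, and 0 members had an unadjusted p under 0.05, as 1160 of all genes did. In cord they ranged from 0.08 ± 0.50 for Serping1 to 0.42 ± 0.21 for C3. There 1 member, Itgam (0.27 ± 0.11, unadjusted p = 0.0178, edgeR adjusted p = 0.737), had an unadjusted p under 0.05, as 1150 of all genes did. DESeq2 called 0 members in either tissue, and 24 of all genes in DRG and 0 in cord. These standard errors leave room for differences of some size, so like responses are not shown.

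Several complement genes had lower levels in KO than in WT DRG without injury. Of the 9 genes 4 were called lower and 0 higher in naive KO DRG, where 28.2% of genes tested were called in either direction, 12.8% higher and 15.4% lower. The median of the 9 was -0.56, beside -0.02 over all genes. The naive libraries are those set against the injured ones above, so the 2 sets of comparisons share them. C5ar1 showed the widest gap, with the 5 KO libraries (0.867 to 1.61 CPM) all under the 5 WT libraries (1.75 to 3.60 CPM), at 1.22 ± 0.273 CPM in naive KO, against 2.69 ± 0.690 CPM in naive WT (SD, n = 5 each; log2 fold change -1.16 ± 0.22, adjusted p = 0.00171). C3ar1 averaged 3.20 ± 0.209 CPM in naive KO and 5.16 ± 1.25 CPM in naive WT (-0.71 ± 0.17, adjusted p = 0.00799). Only the WT library B3, at 3.16 CPM, lay within the KO range. Itgam averaged 4.00 ± 1.13 CPM in naive KO and 8.17 ± 3.87 CPM in naive WT (-1.05 ± 0.31, adjusted p = 0.0223), and C1qc 18.1 ± 4.30 CPM in naive KO and 26.2 ± 7.75 CPM in naive WT (-0.56 ± 0.20, adjusted p = 0.0447), both with overlap between groups.

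C1qa (-0.56 ± 0.21, adjusted p = 0.0574) and C1qb (-0.52 ± 0.21, adjusted p = 0.0674) had nearly the same difference as C1qc in naive DRG and were not called. C3 (-0.50 ± 0.27), C4b (-0.20 ± 0.09) and Serping1 (-0.26 ± 0.11) were not called either. Some calls hung on single libraries. C1qc was not called without A1, A2, A3, B2, B4, C1 or C2 (adjusted p = 0.064 to 0.142), nor Itgam without A2, A3, C1 or C2 (0.0533 to 0.0818), whereas C1qa was called without A4, B1 or B3 (0.0206 to 0.0462) and C1qb without A4 or B1 (0.0164 and 0.0303). Without both libraries of conflicting labels, A2 and A4, C1qb was called (-0.73, adjusted p = 0.0411) and C1qc (-0.69, adjusted p = 0.0505) and Itgam (-0.98, adjusted p = 0.0903) were not. C3ar1 and C5ar1 were called under each of these.

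Blood and immune cell markers differed in the same direction in naive DRG. All 5 blood markers were lower in KO (median -2.13), with a summed level of 188.8 to 599.7 CPM in naive KO, against 721.1 to 3439 CPM in naive WT. All 10 neutrophil markers were lower (median -1.88), with 24.51 to 78.81 CPM in naive KO, against 84.99 to 459.7 CPM in naive WT. Of 10 macrophage markers 7 were lower and 1, Mertk, was higher, with 145.5 to 245.2 CPM in naive KO, against 213.7 to 405.3 CPM in naive WT. The macrophage sums overlapped between genotypes, the blood and neutrophil sums did not. Of 3 monocyte markers 2 were lower, of 5 endothelial markers 4, of 5 fibroblast markers 3 and of 8 microglia markers 2. Astrocyte markers were higher in KO for 3 of 5, neuron markers for 2 of 4 and DRG neuron markers for 1 of 4. The naive WT libraries differed among themselves. Macrophage sums were 294.9, 405.3 and 402.5 CPM in A1, A3 and C1, against 213.7 and 240 CPM in B1 and B3. Fibroblast sums were 2597, 2947 and 3081 CPM, against 1944 and 1733 CPM. The C1q genes summed to 73.05, 109.6 and 88.61 CPM, against 52.49 and 61.07 CPM, and to 40.27 to 76.56 CPM in naive KO. The part of these cells, or of this split, in the lower complement levels was not tested. As a description, the C1q sum per unit of Csf1r was 1.77 to 2.36 in naive KO DRG, against 1.57 to 1.94 in naive WT DRG, with overlap. Csf1r is itself one of the macrophage markers, and in whole tissue this ratio cannot tell cell number from RNA per cell.

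After injury the genotypes differed less clearly in DRG. Of the 9 genes 1, C5ar1, was called lower in injured KO DRG and 0 higher, where 5.1% of genes tested were called in either direction, 2.39% higher and 2.71% lower. C5ar1 averaged 2.93 ± 0.842 CPM in injured KO and 5.59 ± 0.999 CPM in injured WT (SD, n = 4 each; -0.92 ± 0.22, adjusted p = 0.0184), without overlap. The call was lost without E2 (-0.79, adjusted p = 0.0721), E3 (-0.84, 0.0725), E4 (-0.92, 0.0546) or F2 (-0.92, 0.056). C3 had -0.79 ± 0.28 (adjusted p = 0.115) and C3ar1 -0.54 ± 0.17 (adjusted p = 0.0774), and without the WT library E1 both were called (-0.99, adjusted p = 0.037, and -0.68, adjusted p = 0.0251). The C1q genes had -0.43 ± 0.23 for C1qa, -0.40 ± 0.22 for C1qb and -0.38 ± 0.21 for C1qc, and none was called. No macrophage, neutrophil or blood marker was called between genotypes in injured DRG, and the macrophage sums were 432.8 to 596.2 CPM in injured KO, against 466.7 to 913.1 CPM in injured WT. The injured WT libraries were not alike. Macrophage sums were 913.1 and 852.6 CPM in E3 and F3, against 466.7 and 601.9 CPM in E1 and F1. Fibroblast sums were 3384 and 3254 CPM, against 1779 and 2489 CPM, and DRG neuron sums 1531 and 1497 CPM, against 2231 and 2198 CPM. The part of this in the genotype values was not tested. That the genotype difference is smaller after injury was not shown, since the interaction was not called.

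**Figure D4:**
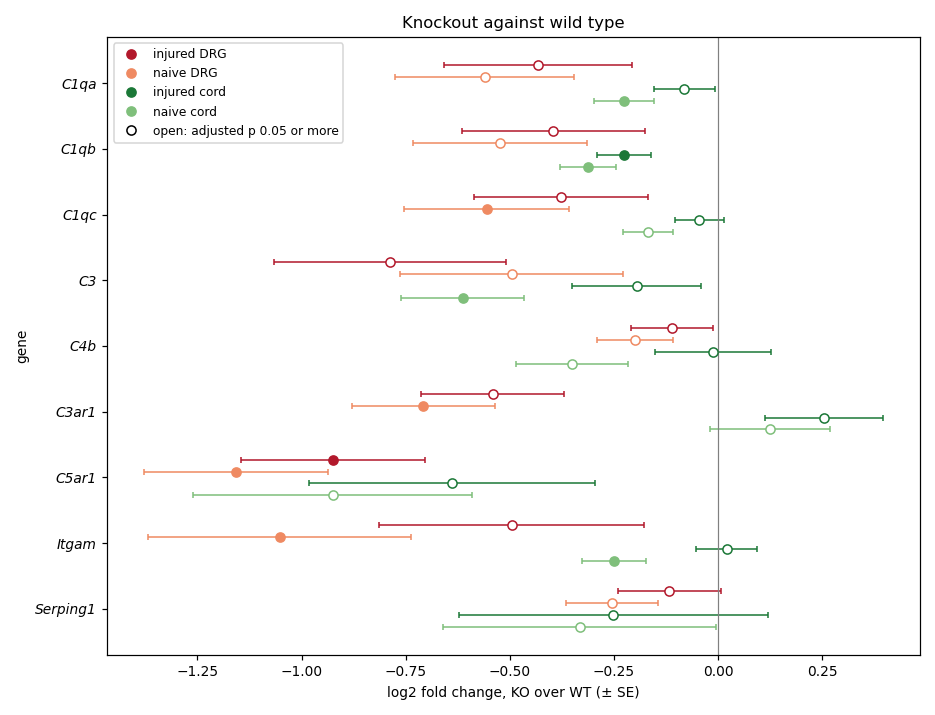
Log2 fold change of KO over WT (x axis, ± SE from edgeR) for each complement gene in injured DRG, naive DRG, injured cord and naive cord, with filled points at an adjusted p under 0.05. Every point of the 9 genes lies below 0 in DRG, and C5ar1 lies furthest left in all 4 settings, at -0.92 in injured DRG, -1.16 in naive DRG, -0.64 in injured cord and -0.93 in naive cord.

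In naive cord 4 of the 9 genes were called lower in KO and 0 higher, where 19.7% of genes tested were called in either direction, 9.79% higher and 9.94% lower. C3 averaged 17.4 ± 2.19 CPM in naive KO and 26.6 ± 6.14 CPM in naive WT (SD, n = 5 each; -0.61 ± 0.15, adjusted p = 0.00959). C1qb averaged 17.97 ± 2.002 CPM in naive KO and 22.3 ± 1.46 CPM in naive WT (-0.31 ± 0.07, adjusted p = 0.00204). In both genes all KO libraries lay under all WT libraries. C1qa (-0.23 ± 0.07, adjusted p = 0.0321) and Itgam (-0.25 ± 0.08, adjusted p = 0.024) were lower by a small amount with overlap, and C1qc (-0.17 ± 0.06, adjusted p = 0.0511) and C5ar1 (-0.93 ± 0.34, adjusted p = 0.0534) just missed the threshold. C4b (-0.35 ± 0.14), Serping1 (-0.33 ± 0.33) and C3ar1 (0.12 ± 0.14) were not called.

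The calls of C3 and C1qb in naive cord held without each library in turn. C1qa was not called without A5, A6, C5 or C6 (adjusted p = 0.0669 to 0.0987), nor Itgam without A5, A6, A8, B6 or C5 (0.0596 to 0.0842), while C1qc was called without A7, B6 or B7 (0.0414 to 0.0479) and C5ar1 without A7 or C5 (0.0182 and 0.0457). Microglia markers went both ways in naive KO cord, with 2 of 8 higher and 3 lower, and summed to 208.8 to 232.2 CPM in naive KO, against 215.1 to 239 CPM in naive WT. Blood markers were lower for 4 of 5, with 141.4 to 177.5 CPM in naive KO, against 175.2 to 496.4 CPM in naive WT. Monocyte markers were lower for 2 of 2 tested (median -1.169). The 3 monocyte markers summed to 0.7674 to 1.503 CPM in naive KO, against 1.64 to 3.022 CPM in naive WT, without overlap. Schwann and oligodendrocyte markers were lower for 1 of 4 each and higher for 0. Astrocyte markers were higher for 2 of 5 and lower for 1. Of 9 macrophage markers tested 1 was higher and 1 lower, as of 4 neuron markers. The part of these cells in the differences was not tested.

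In injured cord 1 gene, C1qb, was called lower in KO and 0 higher, where 6.26% of genes tested were called in either direction, 2.95% higher and 3.31% lower. C1qb averaged 50.5 ± 1.20 CPM in injured KO and 58.9 ± 4.52 CPM in injured WT (SD, n = 4 each; -0.23 ± 0.07, adjusted p = 0.0383), with no overlap between 49.4 to 52.0 CPM in KO and 54.0 to 63.9 CPM in WT. It was not called without E5, E6, E7, E8, F6 or F8 (adjusted p = 0.0549 to 0.138) nor by limma (0.0542). Among the C1q reads of a library C1qb made up 28.7% to 30.3% in injured KO cord, against 30.3% to 32.65% in injured WT cord, and 25.2% to 31.6% in naive KO cord, against 29.2% to 31.1% in naive WT cord. In DRG it made up 29.4% to 32.8% in all 4 groups. The other 8 genes were not called in injured cord, from -0.64 ± 0.34 for C5ar1 to 0.25 ± 0.14 for C3ar1, and Itgam had 0.02 ± 0.07.

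The lower level of C5ar1 in KO was joined by that of its neighbour C5ar2, the gene of the other C5a receptor, which belongs to a list of 47 further complement genes. On chromosome 7 of GRCm38 C5ar2 lies at 16234585-16244154 and C5ar1 at 16246743-16259540, both on the minus strand, 2.6 kb apart with 0 genes between. C5ar2 had 0.235, 0.312, 0.585 and 0.226 CPM in injured KO DRG, against 1.41, 1.58, 1.66 and 1.503 CPM in injured WT DRG (-2.17 ± 0.35, adjusted p = 0.000677). In naive DRG it had 0.300, 0.127, 0.257, 0.181 and 0.274 CPM in KO, against 0.711, 1.24, 0.765, 0.299 and 1.09 CPM in WT (-1.88 ± 0.35, adjusted p = 0.00137). Injured genotypes were far apart, and in naive DRG the WT library B3 just reached the KO range. In cord it had 0.142 to 0.317 CPM in injured KO, against 0.602 to 1.01 CPM in injured WT (-1.66 ± 0.33, adjusted p = 0.00258), and 0.139 to 0.241 CPM in naive KO, against 0.414 to 0.811 CPM in naive WT (-1.61 ± 0.33, adjusted p = 0.00146), without overlap in either. All 4 calls held without each library in turn and under each other setting tried. The counts behind them were 2.87 to 13.08 reads per KO library and 7 to 42.36 per WT library, and were not whole in 29 libraries, so some reads were shared with another gene by estimate.

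**Figure D5:**
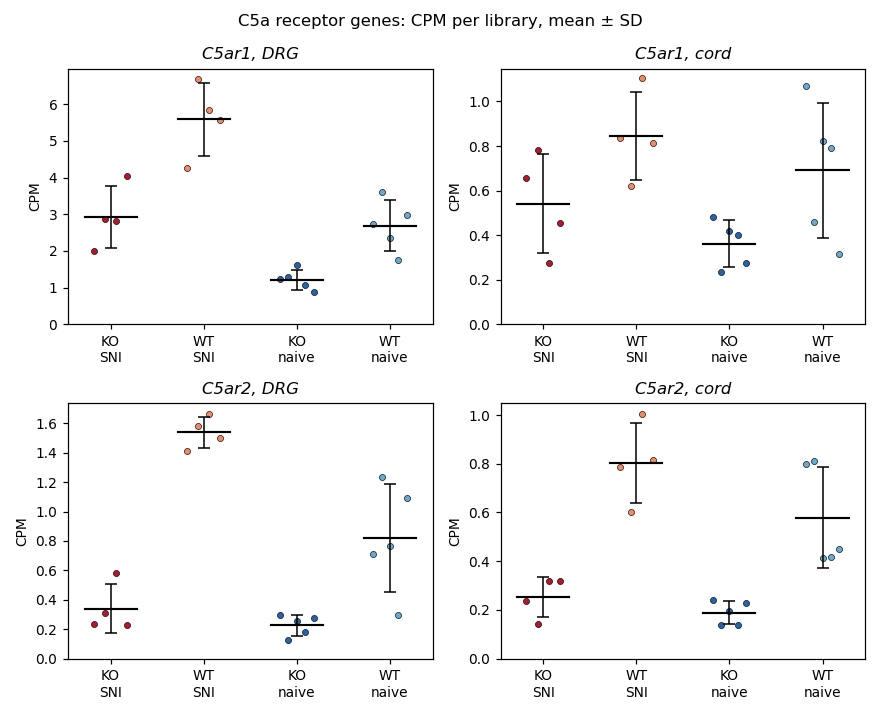
CPM of C5ar1 (top) and C5ar2 (bottom) in each library of DRG (left) and cord (right), with group mean (long line) and SD (bars). KO libraries lie under WT libraries of the same tissue and state for C5ar2 in injured DRG and both cord states, and for C5ar1 in both DRG states, while C5ar1 overlaps in cord.

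Of the 47 further complement genes 41 were tested in DRG. In injured KO DRG 12 were higher and 3 lower (29.3% and 7.32% of the 41, median 0.33), beside 15.1% and 13.3% of all genes tested. In injured WT DRG 9 were higher and 5 lower (22% and 12.2%, median 0.18), beside 12.6% and 12.3% of all genes. The largest rises named were in Colec10, a lectin of the collectin family, with 1.60 to 2.47 CPM in injured KO DRG, against 0.121 to 0.228 CPM in naive KO DRG (3.71 ± 0.27, adjusted p = 7.55e-09), and 1.70 to 2.59 CPM in injured WT DRG, against 0.120 to 0.416 CPM in naive WT DRG (3.18 ± 0.26, adjusted p = 2.95e-08). Cr2, the gene of complement receptor CR2 for C3 fragments, had 4.74 to 5.65 CPM in injured KO DRG, against 0.483 to 1.08 CPM in naive KO DRG (2.85 ± 0.18, adjusted p = 6.24e-10), and 2.33 to 3.03 CPM in injured WT DRG, against 0.855 to 1.21 CPM in naive WT DRG (1.41 ± 0.17, adjusted p = 6.21e-06). Both genes were apart between injured and naive libraries. Injured KO DRG also had more Cr2 than injured WT DRG (1.01 ± 0.17, adjusted p = 0.000864), yet the difference in injury response was not called (1.44 ± 0.25, adjusted p = 0.0627).

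Among regulators in DRG, Cd59a, which blocks the membrane attack complex, rose in KO (0.52 ± 0.05, adjusted p = 4.27e-07) and WT (0.51 ± 0.05, adjusted p = 6.84e-07). Cd55, which speeds the decay of C3 convertases, fell in both, by 0.55 ± 0.07 on the log2 scale in KO (adjusted p = 1.54e-05) and 0.63 ± 0.07 in WT (adjusted p = 3.57e-06). Cfp, the gene of properdin, a stabiliser of the alternative convertase, rose by 1.08 ± 0.17 in KO (adjusted p = 9.02e-05) and 0.84 ± 0.16 in WT (adjusted p = 0.000832). The lectin gene Mbl2 rose in WT (1.395 ± 0.240, adjusted p = 0.000241), as it did in KO (1.43 ± 0.26, adjusted p = 0.000305). The regulator gene Susd4 fell in KO by 0.68 ± 0.11 (adjusted p = 0.000165) and in WT by 0.39 ± 0.11 (adjusted p = 0.0174), the WT call being lost without E3 or F3. The regulator gene Csmd3 fell in KO by 0.48 ± 0.15 (adjusted p = 0.0182), a call lost without E2 or E4 or without A2 and A4 together, and in WT by 0.80 ± 0.14 (adjusted p = 0.000419). In naive KO DRG 4 of the 41 were higher and 8 lower than in WT, in all 29.3%, near the 28.2% of all genes called. In injured KO DRG 1 was higher and 2 lower, in all 7.32%, beside 5.1% of all genes. Named besides C5ar2 in naive KO DRG were Cd93, a receptor gene first tied to C1q (-0.54 ± 0.12, adjusted p = 0.00399), Cd46 (-0.43 ± 0.10), C1ra (-0.64 ± 0.17), Susd4 (0.48 ± 0.11) and Clu, which encodes clusterin (0.35 ± 0.08). The other call in injured KO DRG was C1rb (-1.66 ± 0.47, adjusted p = 0.0473), which was not called without E2, E3, E4, F2, F3 or F4. Without both A2 and A4 the call of Cd46 was lost (-0.36, adjusted p = 0.0516).

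In cord 32 of the 47 were tested, and 5 were higher in injured KO (15.6%, beside 3.79% of all genes) and 4 in injured WT (12.5%, beside 2.61%), with 0 lower in each. Itgb2, the beta chain gene of CR3, had 9.38 to 10.2 CPM in injured KO cord, against 3.66 to 4.99 CPM in naive KO cord (1.15 ± 0.10, adjusted p = 9.16e-09), and 9.72 to 11.5 CPM in injured WT cord, against 4.22 to 5.74 CPM in naive WT cord (1.08 ± 0.10, adjusted p = 2.29e-08). Itgax, the alpha chain gene of CR4, rose in KO (1.99 ± 0.24, adjusted p = 2.35e-06) and WT (1.44 ± 0.23, adjusted p = 0.000158), and Clu in KO (0.32 ± 0.04, adjusted p = 7.99e-07) and WT (0.20 ± 0.04, adjusted p = 0.000929). Cfi, the gene of factor I, which cleaves C3b, rose in KO (1.99 ± 0.41, adjusted p = 0.00327), and in WT its call (1.59 ± 0.43, adjusted p = 0.0426) was lost without A5, B5, B7, C5, E5, E7 or F7. Cr2 was called in KO (0.83 ± 0.23, adjusted p = 0.04), but not without A6, A8, B6, E6 or F8. In naive KO cord 3 were higher and 3 lower than in WT, in all 18.8%, near the 19.7% of all genes called, the others besides C5ar2 being Csmd1 (0.32 ± 0.07), Csmd2 (0.29 ± 0.07), Csmd3 (0.24 ± 0.06), Masp2 (-1.41 ± 0.39) and Cd55 (-0.49 ± 0.15), the last not called without A5, A6, A8, B5, B8 or C6. In injured KO cord 2 were called (6.25%, near the 6.26% of all genes). Lrp1, the gene of a receptor for many ligands, was higher (0.16 ± 0.04, adjusted p = 0.0202) and C5ar2 lower in KO, with Lrp1 not called without E5, E8, F7 or F8. No gene of the list was called in either interaction.

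All 9 genes were tested in both tissues. In naive KO libraries 4 genes were higher in DRG than in cord and 3 lower, where 74.8% of the 20626 genes tested were called in either direction, 37% higher and 37.8% lower. In naive WT libraries 3 were higher and 2 lower, where 76.7% were called, 40.1% higher and 36.6% lower, so these counts lie near or below the background. Serping1 was higher in DRG by 3.40 ± 0.25 in KO (log2, adjusted p = 2.005e-13) and 3.30 ± 0.25 in WT (adjusted p = 2.62e-13). C5ar1 was higher by 1.74 ± 0.30 in KO (adjusted p = 4.59e-06) and 1.95 ± 0.25 in WT (adjusted p = 1.57e-08), and C3ar1 by 0.47 ± 0.17 in KO (adjusted p = 0.0112) and 1.28 ± 0.16 in WT (adjusted p = 7.19e-09). C3 and Itgam were lower in DRG, C3 by values of -1.48 ± 0.23 in KO and -1.62 ± 0.22 in WT, and Itgam by -1.99 ± 0.25 in KO and -1.20 ± 0.23 in WT. In KO C4b was also higher (0.39 ± 0.11, adjusted p = 0.00272) and C1qa lower (-0.47 ± 0.17, adjusted p = 0.0156). Naive WT columns of DRG and cord that share a number deviated together (r = 0.144 to 0.34 over 5 pairs), and with that number as a block C4b was called higher in WT too (0.22, adjusted p = 0.0405).

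Some of these tissue calls moved with single libraries. In naive KO the call of C1qa was lost without A2 (-0.40, adjusted p = 0.0502) or C2 (-0.37, adjusted p = 0.0621), and that of C3ar1 without C6 (0.38, adjusted p = 0.051). In naive WT C1qc was called higher in DRG without A5, B1 or B3 (adjusted p = 0.017 to 0.0486), and C4b without A5 (0.30, adjusted p = 0.018).

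Per kilobase of exon, a rough way to set genes beside each other, the order also differed between tissues. The length was that of all annotated exons of a gene together, not of the transcript expressed. It was 1931 bases for C1qc, 1040 for C1qa and 1088 for C1qb. In naive WT DRG C1qc had 26.2 CPM and C1qa 27.1 CPM, so their gap per kb rests largely on that length. In naive WT DRG Serping1 stood first at 106 ± 15.6 CPM per kb (SD, n = 5), followed by C1qa at 26.1 ± 8.03, C1qb at 21.7 ± 6.15, C1qc at 13.6 ± 4.01 and C4b at 8.54 ± 0.727. C3 at 1.68 ± 0.670, Itgam at 1.63 ± 0.770, C3ar1 at 1.20 ± 0.290 and C5ar1 at 1.05 ± 0.269 CPM per kb came last and lay within each other's spread. In naive WT cord the order of levels was C1qa at 28.9 ± 2.38, C1qb at 20.5 ± 1.34, C1qc at 11.1 ± 1.10, Serping1 at 10.7 ± 4.72, C4b at 7.35 ± 0.890, C3 at 5.18 ± 1.19, Itgam at 3.76 ± 0.512, C3ar1 at 0.493 ± 0.0607 and C5ar1 at 0.269 ± 0.118 CPM per kb. There C1qc and Serping1 did not differ beyond their spread. In injured WT cord Itgam reached 10.7 ± 0.352 CPM per kb, against 3.82 ± 1.29 CPM per kb in injured WT DRG (SD, n = 4 each).

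The injury response itself was compared between tissues in 1 fit of all 36 libraries. In WT C3 rose further in DRG than in cord, by 1.06 ± 0.31 on the log2 scale (adjusted p = 0.0205), and was the only one of the 9 called, where 12.5% of genes tested were called in either direction, 5.59% higher and 6.92% lower. With the column number as a block across tissues the call of C3 was lost (1.04, adjusted p = 0.0628). In KO 0 of the 9 were called, where 17.2% of genes were, 6.69% higher and 10.5% lower, and C3 had 0.33 ± 0.33 (adjusted p = 0.566). By edgeR's unadjusted p 1 member fell under 0.05 in KO, C3ar1 (0.48 ± 0.23), and DESeq2 called 0. Without the naive library A3 C1qa was called in WT as well (0.69, adjusted p = 0.043). Whether the tissue difference of C3 itself differs between genotypes was not tested. Cr2 was higher in DRG in both genotypes by this measure (1.99 ± 0.29 in KO, adjusted p = 3.27e-06, and 0.99 ± 0.29 in WT, adjusted p = 0.0197), though in WT not without B5 or E5.

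The genes nearest to each member in profile were looked up across the 36 libraries. Likeness was measured as the root mean square difference of centred log2(CPM + 1) over the 36 libraries among 15098 genes, and the libraries share tissue and injury, so it is a description. Fcgr1, an Fc receptor gene of macrophages, was nearest to C1qa (0.209) and C1qb (0.203), with Nckap1l (0.226) and Cd300c2 (0.242) next for C1qa, and Pld4 was nearest to C1qc (0.216). For C4b the nearest were Unc93b1 (0.24), Cyth4 (0.258) and Pld4 (0.268), and for C3 Vsir (0.315), the fractalkine receptor gene Cx3cr1 (0.317) and Gpr34 (0.345). P2ry6 was nearest to C3ar1 (0.249), Hfe to C5ar1 (0.226) and Ctss, which encodes cathepsin S, to Itgam (0.303). Serping1 had Ahnak (0.163), and its own SD over the libraries was 1.81 on that scale, against 0.804 for C1qa and 0.835 for C1qb.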

How the data were processed

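The deposited raw table held expected counts, reads per gene estimated by RSEM, and the deposited normalised table held signal values that equalled the raw columns times 1 TMM factor each. The build was GRCm38 and the tools were RSEM, HISAT2 and FastQC 0.11.5, per the submitters' processing notes. Their roles, any further versions and the gene models are not given in the sources used here. In the deposited column of library E1, which had the unit other, 9150 decimal commas were read as points and 1 lost cell was restored from the normalised table. Both tables named 36 libraries. No 2 libraries were identical. The level of the targeted gene is not reported here.

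Counts were rounded and fitted with edgeR 4.0.16 in R 4.3.3 (TMM, filterByExpr, robust quasi-likelihood), per tissue with 18 libraries in 4 groups, and over all 36 libraries for tissue comparisons. Each SE came from the fold change on the log2 scale and its F statistic. CPM used TMM library sizes of the 36-library fit. Genes were tested at an adjusted p of 0.05. Scripts were tested on simulated data. Alternatives were DESeq2 1.42.0, DESeq2 size factors, no filter, limma 3.58.1 on log2 of the normalised values plus 1, only the groups compared, leaving out libraries, and the column number as a replicate block.

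As a block across tissues the column number was used in all 36 libraries. Same-numbered DRG and cord libraries correlated at 0.144 to 0.34 in naive WT and 0.0592 to 0.286 in naive KO. After injury they correlated at 0.0849 to 0.207 in WT and 0.0312 to 0.223 in KO. In that order, 5 of 5, 4 of 5, 4 of 4 and 2 of 4 correlated best with their own number. The labels do not say what the number means. All 9 members were named in each comparison, as were, of the further complement genes, up to 6 called ones with the lowest adjusted p, and the genes nearest in profile. The genes and lists were chosen with earlier results of these data known.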

Additional observations from a re-analysis of the deposited data

Results flagged for a closer look

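In naive WT cord, library A5 lay above the other 4 libraries in 3 complement genes. It had 24.9 CPM of C1qb, against 21.3 to 22 CPM in the others, a gap of 0.797 of the whole range. It had 25.3 CPM of C1qc, against 20.2 to 21.1 CPM (0.822 of the range), and 50.9 CPM of C4b, against 38.8 to 40.1 CPM (0.891 of the range). In naive KO cord, library A6 had 13.5 CPM of C3, against 18.2 to 18.5 CPM in the other 4 (0.937 of the range). Of the 72 sets of values looked at for such gaps, chance alone would flag about 1 in 20, so a few flagged sets, as here, are about what chance gives. A5 also had the highest macrophage (168.7 CPM), fibroblast (546 CPM) and Schwann (1198 CPM) marker sums of its group. Its microglia (238.4 CPM) and blood (306.6 CPM) sums were not the highest. A6 had the lowest macrophage (115.5 CPM), fibroblast (180.1 CPM) and Schwann (343.9 CPM) sums of its group. Whether these go with the gaps was not tested.

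The WT injury response of C3 was larger in DRG than in cord by 1.06 on the log2 scale, by the test of that difference (adjusted p = 0.0205 by edgeR). With the column number as a block across tissues it was not called (1.04, adjusted p = 0.0628).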

How the results depend on the processing

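Of 2185 values of the 9 genes under other settings, 2108 kept their side of the threshold, 44 lost a call and 33 gained one. The sign turned in 31 values of 12 tests, 0 of which were called in either setting. The injury calls were stable. Leaving out 1 library at a time gave 8 called genes in KO DRG and 8 in WT DRG, 7 in KO cord and 6 to 7 in WT cord. Genotype counts were not. In naive DRG 4 genes were called, against 2 with no filter on low counts and 2 to 6 with a library left out. In injured DRG 1 was called, against 2 by DESeq2 and 0 to 3 with a library left out. In naive cord 4 were called, against 2 in a fit of only the groups compared and 2 to 6 with a library left out. In injured cord 1 was called, against 0 by limma and 0 to 1 with a library left out. For the injury response between tissues in WT 1 was called, and 1 to 2 with a library left out. The causes were not tested.

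The column number was also used as a replicate block. Across genotypes it gave 7 called genes in naive DRG and 3 in injured DRG, and across tissues 0 for the WT injury response. Same-numbered KO and WT libraries correlated at -0.201 to 0.407, and 1 of 5, 2 of 4, 0 of 5 and 3 of 4 correlated best with their own number. The number is thus not shown to pair KO with WT libraries.

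Over all genes, calls between genotypes in naive DRG numbered 5506, against 2626 without A2 and A4 and 3032 to 3248 in 3 of the fits with 1 library left out. In injured DRG they numbered 994, against 649 in a fit of only the groups compared and 615 to 1703 in 5 fits with 1 left out. Injury calls in WT DRG numbered 4864, against 3216 in a fit of only the groups compared. Interaction calls in DRG numbered 5, against 24 by DESeq2, 0 with the replicate block, 2 without A2 and A4, and 1 to 3 in 7 fits with 1 library left out. Depth limits C5ar1 in cord and C5ar2 throughout.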
